A study of Canis lupus familiaris with 6 samples.

Results

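The collagen genes of cultured canine keratinocytes were taken as every gene of the gene-level table whose symbol is COL, a number, A and a number, which gave 44 of 35993 genes. A count was found for 29 of them in at least 1 library, 25 passed the filter on low counts and were tested, 4 had a few counts but were not tested, and 15 were listed at 0 in all 6 libraries. CPEK, a wild-type line of epidermal keratinocytes, received cold atmospheric microwave plasma directly (dCAMP, 3 libraries) or the argon carrier gas without plasma (gas control, 3 libraries), in both groups for 30 s. Fresh medium was given to both groups after 15 min, and RNA was taken after a further 24 h. All 6 libraries come from this 1 line grown alone, with no dermal cells beneath it. The labels do not say whether the libraries of a group are separate cultures, so p-values measure only the spread between these libraries, which may be technical. In bulk RNA, fewer cells that express a gene and less RNA per cell cannot be told apart.

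Collagens are secreted or membrane-bound proteins whose chains wind into triple helices of 3 chains, each chain being the product of its own gene. Fibrillar collagens form the cross-banded fibers of dermis, bone and cartilage, basement membrane collagen forms sheet-like networks under epithelia, and FACIT collagens (fibril-associated, with interrupted helices) sit on the surface of fibers. In skin, basal keratinocytes themselves make the collagens of the junction with the dermis, namely the transmembrane collagen of hemidesmosomes, the network of the basement membrane and the anchoring fibrils below it, while the bulk of fibrillar collagen is the work of dermal fibroblasts.

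Libraries held 43084921 to 54082634 counts assigned to genes, and collagens took 0.403% to 0.457% of them. Levels are compared between genes as FPKM, which is corrected for transcript length, and between groups as CPM, the counts scaled to a TMM-normalized library size. The gas libraries stood further apart than the dCAMP libraries. Over the 25 collagens tested, the highest gas library exceeded the lowest by a median of 1.21-fold and the highest dCAMP library the lowest by 1.10-fold, against 1.38-fold and 1.12-fold over all genes tested. Relative to the mean of the dCAMP libraries, the median collagen lay 0.17 higher on the log2 scale in gas library 1, 0.01 higher in gas library 2 and 0.08 lower in gas library 3 (log2 ratio of -0.08). For the genes described at length below, values with gas library 1 or 3 left out are given too.

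The label of the line was checked against cell type markers. All 10 keratinocyte markers reached 1 FPKM, with a summed level of 20466 to 26068 FPKM in the gas libraries and 19075 to 20242 FPKM in the dCAMP libraries, led by the basal keratins KRT5 (9589 FPKM on average) and KRT14 (9009 FPKM). Of 10 fibroblast markers, DCN, LUM, DPT, FAP, MFAP5 and PDGFRB were listed at 0 in all libraries and FBN1, the fibrillin of microfibrils, alone reached 1 FPKM, at 22.2 FPKM, with THY1 next at 0.551 FPKM. The list summed to 20.4 to 22.6 FPKM in the gas libraries and 23.4 to 24.5 FPKM in the dCAMP libraries. The endothelial list (8 genes, PECAM1 and EMCN listed at 0) summed to 2.15 to 2.54 FPKM in gas and 2.72 to 3.34 FPKM in dCAMP libraries and was led by VWF (1.43 FPKM) and KDR (0.994 FPKM). The smooth muscle and pericyte list (8 genes, RGS5 listed at 0) summed to 12.1 to 16.5 FPKM in gas and 11.7 to 13.2 FPKM in dCAMP libraries, nearly all of it NOTCH3 (12.7 FPKM), with MCAM next (0.546 FPKM). Of the melanocyte list (7 genes), TYR, TYRP1 and DCT were listed at 0. That list summed to 1.61 to 1.87 FPKM in gas and 1.87 to 2.55 FPKM in dCAMP libraries, led by MITF (1.39 FPKM) and SOX10 (0.274 FPKM). SOX10 had 63, 73 and 0 counts in gas and 0, 0 and 72 counts in dCAMP libraries, so its mean describes no single library. The immune list (8 genes, PTPRC, CD3E, CSF1R, LCP1 and AIF1 listed at 0) summed to 1.03 to 1.90 FPKM in gas and 0.959 to 1.72 FPKM in dCAMP libraries, and CD68 was at 0.541 FPKM. For scale, PXDN, the peroxidase that cross-links the basement membrane network, was also listed at 0, and 17 of 11832 genes with at least 100 counts in a library were listed at 0 in another, so a listing at 0 need not mean that a gene was silent.

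CPEK cells expressed chiefly the collagens of the epidermal junction and a set of FACIT collagens, and very little collagen I, II or III. COL17A1, the transmembrane collagen of hemidesmosomes that anchors basal keratinocytes, had a level of 312.6 FPKM ± 18.2 (SD over 6 libraries, as for the levels that follow) and made up 49.3% to 52.0% of the summed collagen FPKM in every library. It was followed by COL14A1, a FACIT collagen that binds to the surface of fibrils, at 86.2 FPKM ± 5.16, and by COL5A2, a chain of the fibril-regulating collagen V, at 60.3 FPKM ± 4.88. The ranges of these 3 genes over the 6 libraries did not overlap with each other or with those of lower genes. Next came the paired basement membrane chains COL4A2 (32.8 FPKM ± 4.85) and COL4A1 (28.0 FPKM ± 3.03) and the basement membrane proteoglycan COL18A1 (21.3 FPKM ± 4.31), and neighbours among these 3 overlapped in range. COL12A1, COL7A1 and COL4A5 formed a further step at 13.4, 13.2 and 12.1 FPKM, in an order that the libraries do not separate. Below them lay COL5A1 (8.13 FPKM), COL16A1 (7.18 FPKM) and COL4A6 (6.42 FPKM), then COL27A1 (3.87 FPKM), and last COL9A2 (1.77 FPKM) and COL22A1 (1.60 FPKM).

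These 15 genes were the collagens with a mean of at least 1 FPKM in the gas libraries. They comprised 5 FACIT, 4 basement membrane and 3 fibrillar collagens, with COL17A1, COL7A1 and COL18A1 for the transmembrane, anchoring fibril and multiplexin classes, and they held 99.4% to 99.5% of the summed collagen FPKM. By class, the transmembrane collagen accounted for 50.5% ± 1.05 of collagen FPKM in the gas libraries, FACIT collagens for 17.7% ± 2.46, basement membrane collagens for 13.3% ± 0.690 and fibrillar collagens for 12.3% ± 0.573 (SD, n = 3). In the dCAMP libraries the same shares were 51.5% ± 0.404, 18.4% ± 0.320, 12.6% ± 0.173 and 12.1% ± 0.139. The FACIT share was the most uneven, at 15.1%, 18.0% and 20.0% in gas libraries 1, 2 and 3. Within the fibrillar class, collagen V chains made up most of the level, and the 7 tested fibrillar genes under 1 FPKM included both chains of collagen I.

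**Figure D1:**
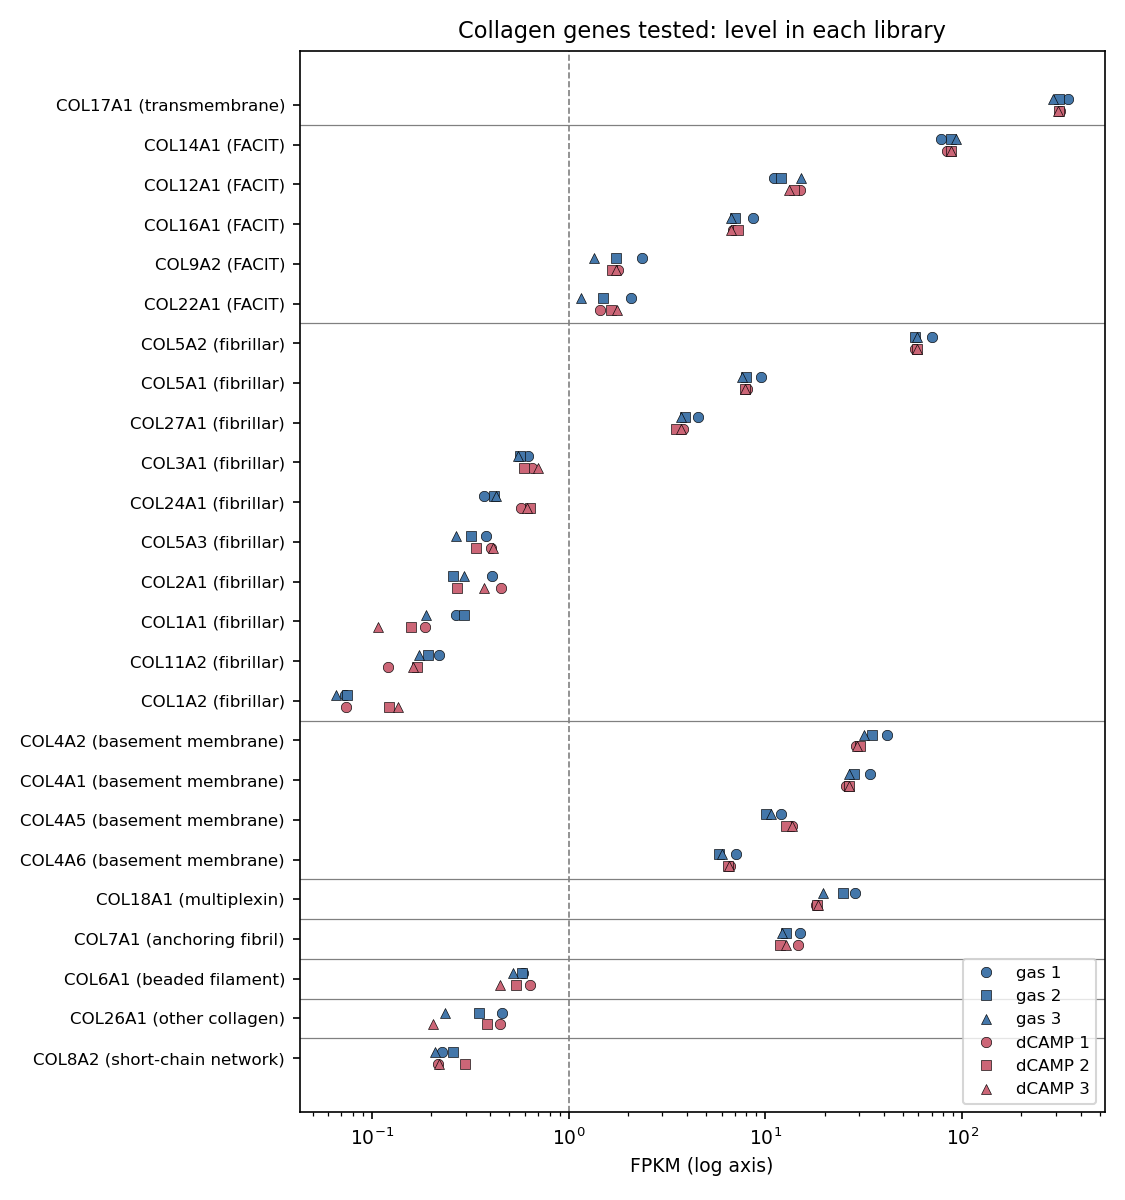
Level of the 25 tested collagens in each library, in FPKM on a log axis, grouped by class; blue symbols are the gas libraries and red symbols the dCAMP libraries, and the dashed line marks 1 FPKM. COL17A1 stands alone at 290 to 346 FPKM, 15 genes lie right of the line, and COL1A1 and COL1A2 are among the lowest.

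dCAMP-treated cells were then compared with the gas control to ask which collagens differ after plasma. COL24A1 and COL4A5 were higher and COL18A1, COL4A2 and COL1A1 were lower after dCAMP at an unadjusted p under 0.05, by 1.22-fold to 1.61-fold. The most abundant collagens COL17A1, COL14A1 and COL5A2 were within 1.06-fold of the gas control. With edgeR's quasi-likelihood test and Benjamini-Hochberg adjustment over all genes, 0 of the 25 collagens had an adjusted p under 0.05 (adjusted p of 0.221 to 0.977), as had 0 of 14708 genes (0%), against 5 collagens and 3040 genes at an unadjusted p under 0.05. The 2 collagens that were higher are 8% of the 25, where 6.81% of all genes were higher at that threshold, and the 3 that were lower are 12%, where 13.9% of all genes were lower. Both shares are near the background and say nothing particular about collagens. Of all genes 1.09% combined a 2-fold difference with such a p, and of the collagens 0 did.

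The 6 values per gene separated by group for 7 collagens. In COL24A1 and COL4A5 every dCAMP library lay above every gas library (2 of 25, or 8%, against 19.0% of all genes), and in COL18A1, COL4A2, COL4A1, COL1A1 and COL11A2 every dCAMP library lay below (5 of 25, or 20%, against 20.9% of all genes). For the other 18 the groups overlapped. Fold changes were small: 24 of the 25 collagens (96%) differed by less than 1.5-fold, as did 82.6% of all genes tested, 11 log2 fold changes were above 0 and 14 below, and their median was -0.02, beside 0.03 over all genes. The collagen transcripts are long, with a median of 6083 bases against 2519 for all genes tested. When each library's trend with transcript length was removed, the median collagen log2 fold change became -0.21 and that of all genes -0.04, and the part of length in these results was not tested further.

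**Figure D2:**
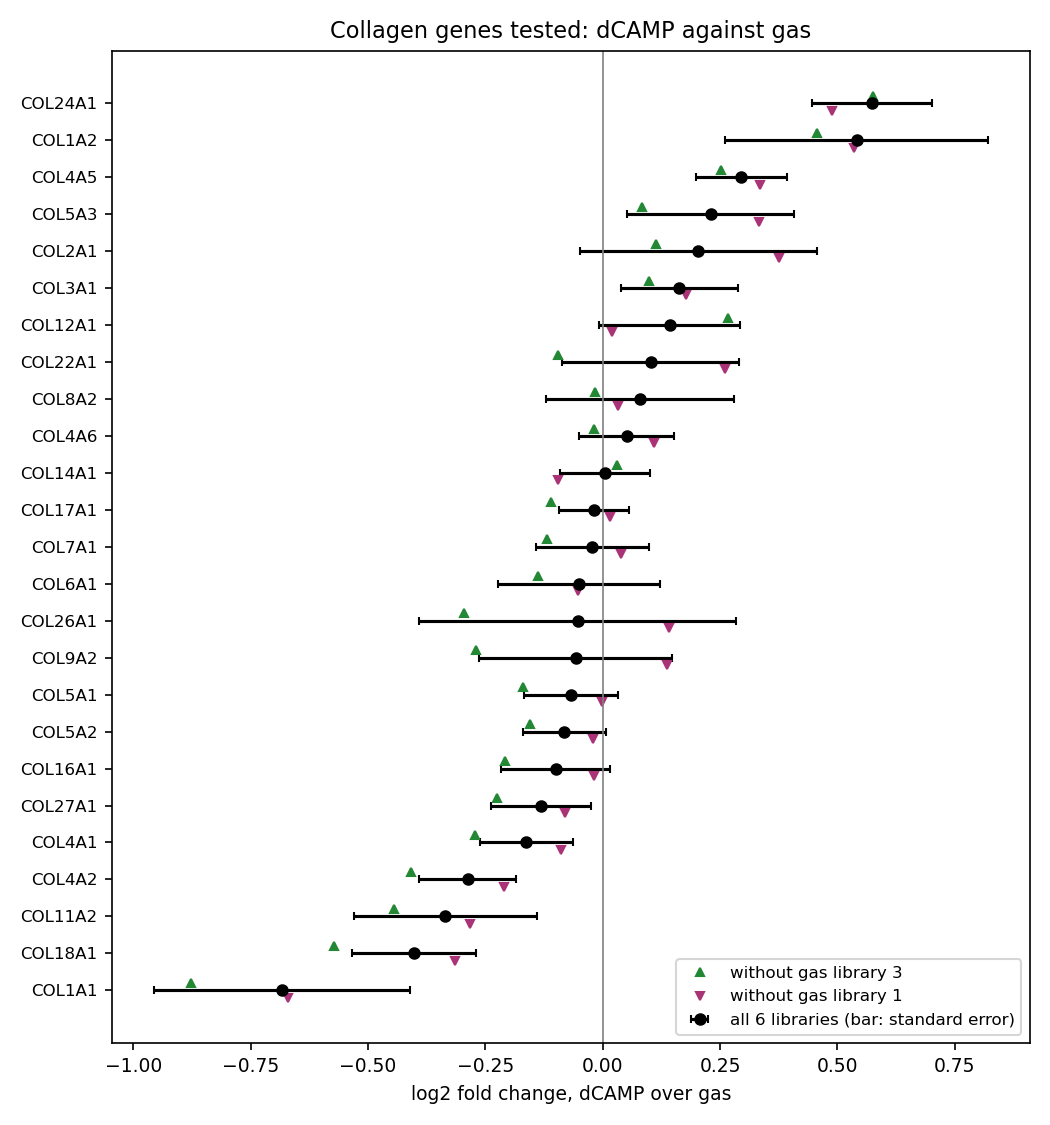
Log2 fold change (dCAMP over gas) of each of the 25 tested collagens with its standard error, from all 6 libraries (black) and with gas library 3 (green) or gas library 1 (purple) left out. Leaving out gas library 3 moves most of the collagens to the left, leaving out gas library 1 moves most of them to the right, and COL24A1, COL4A5, COL18A1, COL4A2 and COL1A1 keep their sides of 0.

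At an unadjusted p under 0.05 in edgeR's test, 6 collagens passed without gas library 3, but not the same ones. COL12A1 and COL4A1 came in, and COL4A5 dropped out (unadjusted p = 0.0583). Without gas library 1, 4 passed, and COL1A1 dropped out (unadjusted p = 0.0738). COL24A1 alone passed without gas library 2, dCAMP library 2 or dCAMP library 3. For fits with a library left out, the share of all genes at the unadjusted threshold was not counted. These numbers are therefore not read as a result about collagens. At the adjusted threshold, gas library 3 had the strongest hold. Without it, COL18A1, COL4A2 and COL24A1 had an adjusted p under 0.05 in edgeR's test, which is 1 collagen higher (4%, against 15.0% of all genes) and 2 lower (8%, against 18.1%). Without gas library 1, 0 collagens and 1 gene in all passed that threshold. A limma voom fit that weights each library by its own quality gave gas libraries 1 and 3 weights of 0.115 and 0.192 and gas library 2 a weight of 6.73, and called 9 collagens (36%) where it called 60.8% of all genes. DESeq2 called 0 collagens.

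The hemidesmosome and anchoring fibril collagens showed no difference beyond the spread of the libraries. COL17A1 (gene 403739, chromosome 28, 16349926 to 16402213 in CanFam3.1) had 2143, 1984 and 1874 CPM in gas libraries 1, 2 and 3 and 2013, 1959.9 and 1949.9 CPM in the dCAMP libraries. The dCAMP values lay inside the range of the gas values, and the log2 fold change was -0.02 ± 0.07 (SE, adjusted p = 0.873). COL7A1 (chromosome 20, 40519121 to 40550305), whose product forms the anchoring fibrils that tie the basement membrane to the dermis, had 154, 134 and 129 CPM in gas and 155, 123 and 133 CPM in dCAMP libraries. Its groups overlapped, with a log2 fold change of -0.02 ± 0.12 (adjusted p = 0.911). The transcript table assigned 91.7% to 97.8% of COL17A1 counts and 78.0% to 96.2% of COL7A1 counts to a single transcript model each, without a separation of the groups.

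Among FACIT collagens, which decorate the surface of fibrils, COL14A1 and COL12A1 were low in gas library 1 and high in gas library 3. COL14A1 (chromosome 13, 19033423 to 19249189) had 547, 630 and 679 CPM in gas and 607, 628 and 628 CPM in dCAMP libraries. COL12A1 (chromosome 12, 36720686 to 36838321) had 138, 153 and 200.3 CPM in gas and 192, 181 and 169 CPM in dCAMP libraries. In both genes gas library 3 was the highest of the 6 and gas library 1 the lowest, so the dCAMP values fell between them. The log2 fold change was 0.00 ± 0.10 for COL14A1 (adjusted p = 0.977) and 0.14 ± 0.15 for COL12A1 (adjusted p = 0.527), and for COL12A1 it ran from 0.02 without gas library 1 to 0.27 without gas library 3.

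The other expressed FACIT collagens went the opposite way among the gas libraries. COL16A1 had 50.0, 42.0 and 40.2 CPM in gas and 40.9, 42.9 and 39.6 CPM in dCAMP libraries (log2 fold change -0.10 ± 0.12). COL9A2, a chain of the cartilage collagen IX, had 5.85, 4.41 and 3.45 CPM in gas and 4.55, 4.20 and 4.40 CPM in dCAMP libraries (-0.06 ± 0.20). COL22A1, known from tissue junctions such as that of muscle and tendon, had 13.7, 10.9 and 8.63 CPM in gas and 10.7, 12.0 and 13.0 CPM in dCAMP libraries (0.10 ± 0.19). In all 3 genes gas library 1 was the highest library, and the adjusted p was 0.565, 0.859 and 0.722 in turn. COL9A1 and COL9A3, the partner chains of COL9A2 in collagen IX, were both listed at 0.

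The basement membrane chains COL4A1 and COL4A2, whose products assemble together into the network found under nearly all epithelia, were lower in all 3 dCAMP libraries, and for COL4A2 the difference had an unadjusted p under 0.05. They lie next to each other on chromosome 22, at 58511210 to 58651949 and 58656579 to 58820560, with 4629 bases between them. COL4A2 had 269, 232 and 213 CPM in gas and 192, 200.3 and 193 CPM in dCAMP libraries. COL4A1 had 232, 199 and 188 CPM in gas and 182, 185 and 187 CPM in dCAMP libraries. No dCAMP library reached the lowest gas library in either gene, though in FPKM the COL4A1 groups overlapped, with 26.6 FPKM in gas library 3 and 26.7 FPKM in dCAMP library 3. The log2 fold change was -0.29 ± 0.10 for COL4A2 (unadjusted p = 0.0303, adjusted p = 0.226) and -0.16 ± 0.10 for COL4A1 (adjusted p = 0.321). For COL4A2 it was -0.41 without gas library 3 (adjusted p = 0.0269) and -0.21 without gas library 1 (adjusted p = 0.225), and for COL4A1 it was -0.27 and -0.09. With each library's length trend removed it was -0.53 for COL4A2 (unadjusted p = 0.0194) and -0.41 for COL4A1 (unadjusted p = 0.0464). The COL4A2 locus overlaps a further gene of the table, LOC111091714.

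COL4A5 and COL4A6, whose products build a separate network in the epidermal basement membrane, lie 1113 bases apart on the X chromosome, at 81982119 to 82248428 and 81690047 to 81981005. COL4A5 had 84.6, 72.1 and 79.0 CPM in gas and 102, 92.7 and 94.6 CPM in dCAMP libraries, so all dCAMP libraries were above all gas libraries. COL4A6 had 54.8, 46.1 and 48.1 CPM in gas and 52.5, 50.4 and 51.5 CPM in dCAMP libraries, and its groups overlapped. The log2 fold change was 0.30 ± 0.10 for COL4A5 (unadjusted p = 0.0211, adjusted p = 0.221) and 0.05 ± 0.10 for COL4A6 (adjusted p = 0.740). For COL4A5 it was 0.25 without gas library 3 (adjusted p = 0.113) and 0.33 without gas library 1 (adjusted p = 0.196). With the length trend removed, the COL4A5 value fell to 0.05 (unadjusted p = 0.735), and the locus overlaps LOC100686428. Counts of COL4A5 were spread over 3 transcript models, of which the leading one held 55.6%, 36.1% and 60.1% in gas and 74.1%, 47.6% and 27.1% in dCAMP libraries, with no separation of the groups. Of the remaining collagen IV chains, which are known from kidney and lung, COL4A4 had 3 counts in gas library 3 and 0 elsewhere, and COL4A3 was listed at 0.

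Ratios between chains within a library do not depend on library size, and 5 of them were formed from FPKM after the values of the genes had been seen. COL4A2 stood to COL4A1 as 1.23, 1.23 and 1.20 in gas libraries and as 1.12, 1.15 and 1.09 in dCAMP libraries. COL4A6 stood to COL4A5 as 0.589, 0.577 and 0.562 in gas and as 0.486, 0.506 and 0.478 in dCAMP libraries. COL4A5 stood to COL4A1 as 0.356, 0.356 and 0.404 in gas and as 0.527, 0.479 and 0.512 in dCAMP libraries. In these 3 ratios the groups did not overlap, gas library 3 included, so in every dCAMP library COL4A5 was higher relative to COL4A1 and to COL4A6, and COL4A2 lower relative to COL4A1, than in any gas library. Since they were chosen with the values in view, the ratios are a description. A permutation test of the libraries gave p = 0.1 for each of these 3 ratios. That is the smallest value 3 against 3 libraries can give, so it cannot decide whether the groups differ. Groups of single genes already failed to overlap for 19.0% (higher) and 20.9% (lower) of all genes. The ratio of COL5A2 to COL5A1 was 7.46 ± 0.302 in gas and 7.39 ± 0.221 in dCAMP libraries (SD, n = 3), with overlapping groups.

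**Figure D3:**
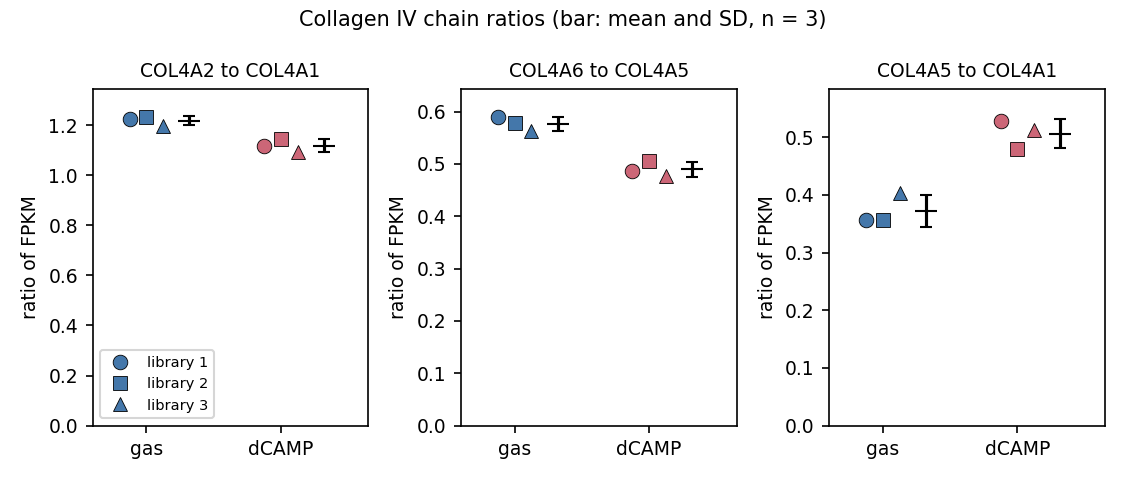
Ratio of the FPKM of collagen IV chains in each library, with the mean and SD of each group (n = 3) as a bar; the axes start at 0. The ratios of COL4A2 to COL4A1 and of COL4A6 to COL4A5 are lower in all 3 dCAMP libraries than in any gas library, and that of COL4A5 to COL4A1 is higher.

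COL18A1 (chromosome 31, 38915872 to 38957484), a multiplexin and heparan sulfate proteoglycan of basement membranes whose end fragment is endostatin, showed the largest difference among collagens above 1 FPKM. It had 147, 132 and 105 CPM in gas and 96.7, 96.0 and 97.8 CPM in dCAMP libraries. The dCAMP libraries were nearly identical, all below the gas libraries, and gas library 3 was the nearest to them. The log2 fold change was -0.40 ± 0.13 (1.32-fold lower, unadjusted p = 0.0208, adjusted p = 0.221), -0.57 without gas library 3 (adjusted p = 0.0203) and -0.31 without gas library 1 (adjusted p = 0.217). With the length trend removed it was -0.61 (unadjusted p = 0.0160). The other multiplexin, COL15A1, was listed at 0.

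**Figure D4:**
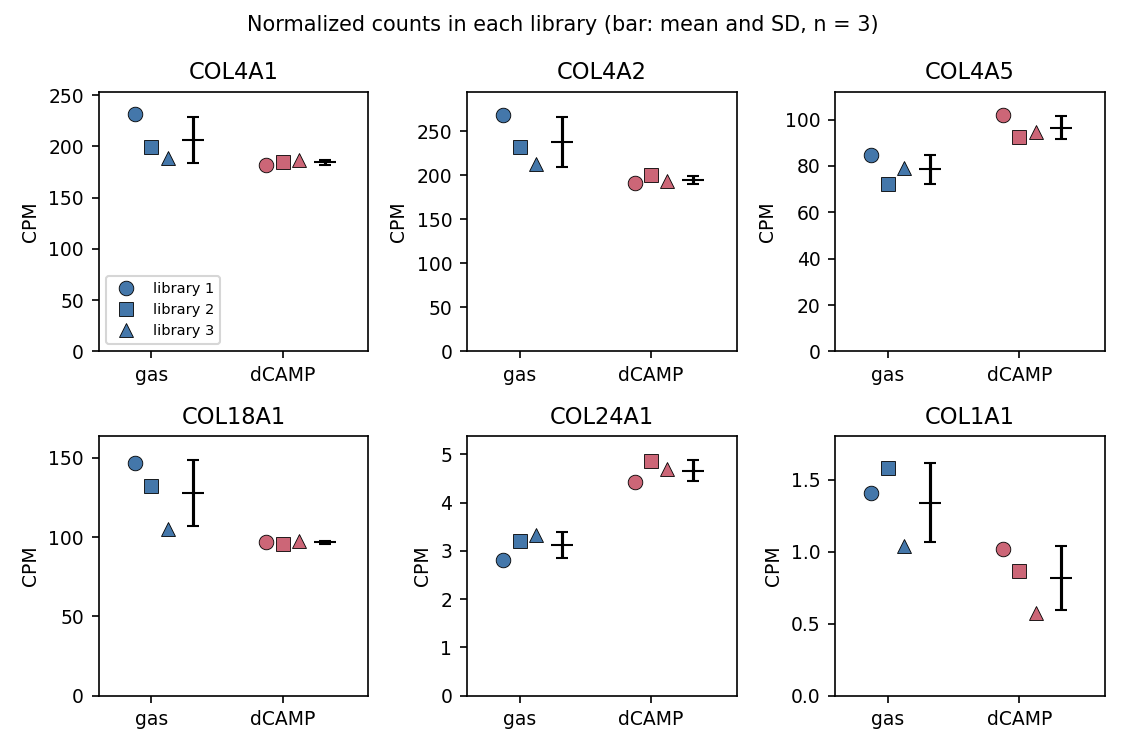
CPM of COL4A1, COL4A2, COL4A5, COL18A1, COL24A1 and COL1A1 in each library, with the mean and SD of each group (n = 3) as a bar; axes start at 0. The groups do not overlap in any of the 6 genes, and in COL4A1, COL4A2, COL18A1 and COL1A1 gas library 3 lies closest to the dCAMP libraries.

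Among fibrillar collagens, the collagen V chains dominated. COL5A2 (chromosome 36, 30538863 to 30677450) had 476, 399.6 and 415 CPM in gas and 403, 409 and 409 CPM in dCAMP libraries. COL5A1 (chromosome 9, 50706852 to 50856691) had 90.8, 78.5 and 75.3 CPM in gas and 79.7, 76.6 and 77.1 CPM in dCAMP libraries. Both were highest in gas library 1 and otherwise level, with log2 fold changes of -0.08 ± 0.09 (adjusted p = 0.535) and -0.07 ± 0.10 (adjusted p = 0.656). COL27A1, a fibrillar collagen known from cartilage, had 37.7, 33.6 and 32.1 CPM in gas and 32.8, 29.8 and 31.8 CPM in dCAMP libraries (-0.13 ± 0.11, adjusted p = 0.420).

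COL24A1, a fibrillar collagen known from developing bone and cornea, had the smallest p of the collagens. On chromosome 6 at 61931272 to 62318091, it had 2.81, 3.21 and 3.32 CPM in gas and 4.42, 4.85 and 4.69 CPM in dCAMP libraries. Every dCAMP library was above every gas library by more than the range of either group, from 130 to 212 counts per library. The log2 fold change was 0.57 ± 0.13 (1.49-fold higher, unadjusted p = 0.00349, adjusted p = 0.221), 0.58 without gas library 3 (adjusted p = 0.0300) and 0.49 without gas library 1 (adjusted p = 0.201). Of the fits tried, only the length correction combined with pairing by replicate number left it without an unadjusted p under 0.05. Its level was low (0.508 FPKM), and its locus overlaps 4 further genes of the table.

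Collagen I and collagen III, the main fibrillar collagens of dermis, were all under 1 FPKM, and the collagen I chains had few counts. COL1A1 (chromosome 9, 26183852 to 26199927) had 65, 83 and 55 counts in gas and 47, 37 and 26 counts in dCAMP libraries, or 1.40, 1.58 and 1.04 CPM against 1.01, 0.863 and 0.575 CPM. The dCAMP libraries were all lower, by 0.68 ± 0.27 on the log2 scale (log2 fold change -0.68, unadjusted p = 0.0441, adjusted p = 0.239), with gas library 3 just above dCAMP library 1. Without gas library 3 the value was -0.88 (adjusted p = 0.0555), and without gas library 1 it was -0.67 (adjusted p = 0.269). COL1A2 (chromosome 14, 19883731 to 19919527), the partner chain, had 18, 21 and 19 counts in gas and 18, 27 and 32 in dCAMP libraries, which is 0.389, 0.399 and 0.358 CPM against 0.388, 0.630 and 0.708 CPM. Its log2 fold change was 0.54 ± 0.28 (adjusted p = 0.282), and dCAMP library 1 was level with the gas libraries. COL3A1 (chromosome 36, 30488250 to 30526367), 12495 bases from COL5A2, had 3.85, 3.61 and 3.58 CPM in gas and 4.16, 3.76 and 4.45 CPM in dCAMP libraries. Its groups overlapped, with a log2 fold change of 0.16 ± 0.12 (adjusted p = 0.397).

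The ratio of COL1A2 to COL1A1 in FPKM was 0.272, 0.255 and 0.348 in gas and 0.395, 0.769 and 1.27 in dCAMP libraries. The groups did not overlap, and the dCAMP values rest on 18 to 47 counts per gene. COL1A1 was at 0.201 FPKM against 60.3 FPKM for COL5A2, so collagen V chains were far more abundant than the collagen I chains with which they form mixed fibrils in tissue. Beside these values, 6 of 10 fibroblast markers were listed at 0, PDGFRA had 3 to 12 and POSTN 0 to 6 counts per library, THY1 was at 0.551 FPKM with overlapping groups, and FBN1, at 22.2 FPKM, was higher in all dCAMP libraries (log2 fold change 0.17 ± 0.08, adjusted p = 0.258). Their part in the collagen values was not tested.

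The remaining 6 tested collagens were all under 1 FPKM and had adjusted p-values well above the threshold. COL6A1, a chain of the beaded filaments of collagen VI, was at 0.553 FPKM, with a log2 fold change of -0.05 ± 0.17, while COL6A2, COL6A3, COL6A5 and COL6A6 were listed at 0, these being the chains with which it assembles. COL5A3 was at 0.354 FPKM (0.23 ± 0.18), the cartilage collagens COL2A1 and COL11A2 at 0.343 FPKM (0.20 ± 0.25) and 0.173 FPKM (-0.34 ± 0.20), COL26A1 at 0.346 FPKM (-0.05 ± 0.34) and the short-chain collagen COL8A2 at 0.238 FPKM (0.08 ± 0.20). COL11A2 was the only gene of these whose groups did not overlap, with 1.58, 1.42 and 1.30 CPM in gas and 0.906, 1.28 and 1.20 CPM in dCAMP libraries (adjusted p = 0.311).

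Of the 4 collagens with counts that were not tested, COL8A1 had 9 counts in gas library 2, 9 in gas library 3 and 5 in dCAMP library 3, COL21A1 had 5 in dCAMP library 3, COL23A1 had 2 in gas library 1, and COL4A4 was named above. Besides the chains already given, COL10A1, COL11A1, COL13A1, COL19A1, COL20A1, COL25A1 and COL28A1 were listed at 0. A count of 0 allows up to 3 counts, or 0.0555 to 0.0696 CPM at these depths, a limit that covers counting error only. Partner chains were thus listed at 0 for COL9A2 and COL6A1, while collagen IV and collagen V had the chains of a helix above 1 FPKM.

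Among the enzymes and chaperones that modify and fold new collagen chains in the endoplasmic reticulum, P4HB, PPIB, COLGALT1 and 7 others were lower after dCAMP at an unadjusted p under 0.05. The list of 19 genes also held SPARC, a collagen-binding protein of the matrix. SPARC had a log2 fold change of 0.10 ± 0.08 (edgeR adjusted p = 0.389), with every dCAMP library above every gas library. Of the 19 genes 16 were tested, so that 10 of 16 were lower and 0 higher, where 13.9% and 6.81% of all genes were. Their median log2 fold change was -0.31 beside 0.03 over all genes. The list was drawn up with earlier results of these data known, so this count is a description and not independent support. P4HB, the disulfide isomerase that is also a subunit of prolyl hydroxylase, had 2673, 2435 and 2075 CPM in gas and 1820 CPM ± 63.6 (SD, n = 3) in dCAMP libraries, a log2 fold change of -0.40 ± 0.10. PPIB, a prolyl isomerase that speeds helix folding, had 723, 641 and 552 CPM in gas and 506 CPM ± 4.64 in dCAMP libraries (-0.34 ± 0.11). COLGALT1, which adds galactose to hydroxylysine, had 99.1, 96.3 and 88.2 CPM in gas and 76.3 CPM ± 2.07 in dCAMP libraries (-0.31 ± 0.09). In these 3 genes all dCAMP libraries were below all gas libraries, as in 20.9% of all genes, with gas library 3 the nearest. The adjusted p was 0.221 for each of the 3. The number of genes of the list with an adjusted p under 0.05 was 0 with all libraries, 10 without gas library 3 and 0 when gas library 1 was left out instead. The 10 were all lower, where 18.1% of all genes were lower without gas library 3.

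The other 7 lower genes of that list were P4HA2, PLOD1, PLOD3, P3H1, P3H4, FKBP10 and the collagen chaperone SERPINH1, with log2 fold changes of -0.44 to -0.25. SERPINH1 had 364, 328 and 292 CPM in gas and 262 CPM ± 3.46 in dCAMP libraries (-0.33 ± 0.10). P4HA1 and PLOD2, a prolyl and a lysyl hydroxylase, had log2 fold changes of 0.66 ± 0.37 and 1.06 ± 0.64 that missed the threshold. PLOD2 in particular differed more among the gas libraries (2.77, 11.7 and 22.0 CPM) than between gas library 3 and the dCAMP libraries (23.3, 26.3 and 26.4 CPM), and leaving out gas library 3 gave PLOD2 a log2 fold change of 1.76, against 0.57 with gas library 1 left out (1.02 and 0.31 for P4HA1). P3H3 was listed at 0, COLGALT2 was too low to test, and FKBP14 was not found in the table.

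Secretion of procollagen uses enlarged transport carriers, and 10 of its genes were tested. SEC23A, a carrier coat protein, was higher (0.60 ± 0.25) and SEC13, also of the coat, lower (-0.28 ± 0.11) at an unadjusted p under 0.05. Among all genes 6.81% were higher and 13.9% lower at that threshold. SEC23A had 31.5, 44.7 and 63.6 CPM in gas and 70.7 CPM ± 4.67 in dCAMP libraries, and SEC13 had 161, 140.2 and 123 CPM in gas and 116 CPM ± 2.57 in dCAMP libraries. Without gas library 3 the log2 fold change was 0.85 for SEC23A and -0.42 for SEC13, and without gas library 1 it was 0.37 and -0.20, with adjusted p-values of 0.0233, 0.0259, 0.229 and 0.261 in turn. TFG had 82.8 FPKM over the 6 libraries and a log2 fold change of 0.05 ± 0.09. The median log2 fold change of the list was 0.26, and 0 genes had an adjusted p under 0.05 with all libraries or without gas library 1. Without gas library 3, 5 of the 10 were higher and 1 lower, where 15.0% of all genes were higher and 18.1% lower.

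Outside the cell, procollagen ends are cut off and the fibers are cross-linked. Of 18 genes for these steps, 12 were tested, 1 was higher and 2 lower at an unadjusted p under 0.05. Among all genes 6.81% were higher and 13.9% lower at that threshold, so these counts are near the background. LOXL1, a lysyl oxidase of elastic fibers, was at 67.1 FPKM, with 99.9, 100.2 and 80.9 CPM in gas and 53.1, 65.8 and 59.1 CPM in dCAMP libraries. Its log2 fold change was -0.66 ± 0.13 (unadjusted p = 0.00206, adjusted p = 0.221 in edgeR), and DESeq2 on all genes with a count gave an adjusted p of 0.0159. LOXL4, another lysyl oxidase, was higher (0.84 ± 0.22) at only 0.224 FPKM, and the transglutaminase TGM2 was lower (-0.63 ± 0.25) at 0.0757 FPKM. The lysyl oxidase LOX, at 8.39 FPKM, had a log2 fold change of 0.78 ± 0.37 with overlapping groups (edgeR adjusted p = 0.264). It was 1.29 without gas library 3 (edgeR adjusted p = 0.0203) and 0.51 without gas library 1 (edgeR adjusted p = 0.313). BMP1, the protease that removes the carboxyl end of procollagen, was at 12.0 FPKM with a log2 fold change of -0.18 ± 0.14. ADAMTS14, MEP1A, MEP1B and PXDN were listed at 0. Without gas library 3 the list had 3 higher and 2 lower of 12 genes at an adjusted p under 0.05, beside 15.0% and 18.1% of all genes. Without gas library 1 it had 0.

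Of 12 collagen receptors, 8 were tested and 0 had an unadjusted p under 0.05, where 6.81% of all genes were higher and 13.9% lower. ITGB1 and ITGA2, which pair as an integrin receptor for collagen, had 236, 516 and 714 CPM and 57.2, 84.9 and 122 CPM in the gas libraries, and 761 CPM ± 16.3 and 136 CPM ± 8.33 in the dCAMP libraries. Each gas library was below every dCAMP library in both genes, a separation that 19.0% of all genes showed. The log2 fold changes of 0.64 ± 0.36 and 0.63 ± 0.26 did not pass (adjusted p = 0.305 and 0.243). Without gas library 3 they were 0.97 for ITGB1 (adjusted p = 0.0602) and 0.89 for ITGA2 (adjusted p = 0.0233), and without gas library 1 they were 0.29 and 0.38 (adjusted p = 0.243 and 0.227). CD44, a receptor for hyaluronan and collagen, had a log2 fold change of 0.08 ± 0.06, and MRC2, which takes up collagen for degradation, -0.26 ± 0.12. GP6, LAIR1 and OSCAR, receptors of blood cells, were listed at 0. The median of the list was 0.00. Without gas library 3, 2 of the 8 were higher and 1 lower at an adjusted p under 0.05, beside 15.0% and 18.1% of all genes. The number was 0 when gas library 1 was left out instead.

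Of 16 partner genes of the basement membrane and hemidesmosome, where collagens XVII, IV and VII lie, 14 were tested. At an unadjusted p under 0.05 the integrin chain ITGA6 was higher (0.35 ± 0.12) and PLEC, the plectin of hemidesmosomes, lower (-0.35 ± 0.11). That is 1 of 14 in each direction, where 6.81% of all genes were higher and 13.9% lower, so the counts say nothing particular about this list. ITGA6 had 874, 968 and 1189.9 CPM in gas and 1292 CPM ± 60.1 in dCAMP libraries, while its partner ITGB4 had 4370.2, 3853 and 3393 CPM in gas and 3362 CPM ± 106 in dCAMP libraries (-0.20 ± 0.10), with overlapping groups. With the length trend removed, ITGA6 was at 0.11 (unadjusted p = 0.210) and PLEC at -0.70 (unadjusted p = 0.0127). The nidogens NID1 and NID2, linkers between laminin and collagen IV, were too low to test. The median of the list was -0.09, and 0 of its genes had an adjusted p under 0.05 from all libraries or after leaving out gas library 1. With gas library 3 left out, 2 of the 14 were higher and 7 lower, where 15.0% of all genes were higher and 18.1% lower.

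**Figure D5:**
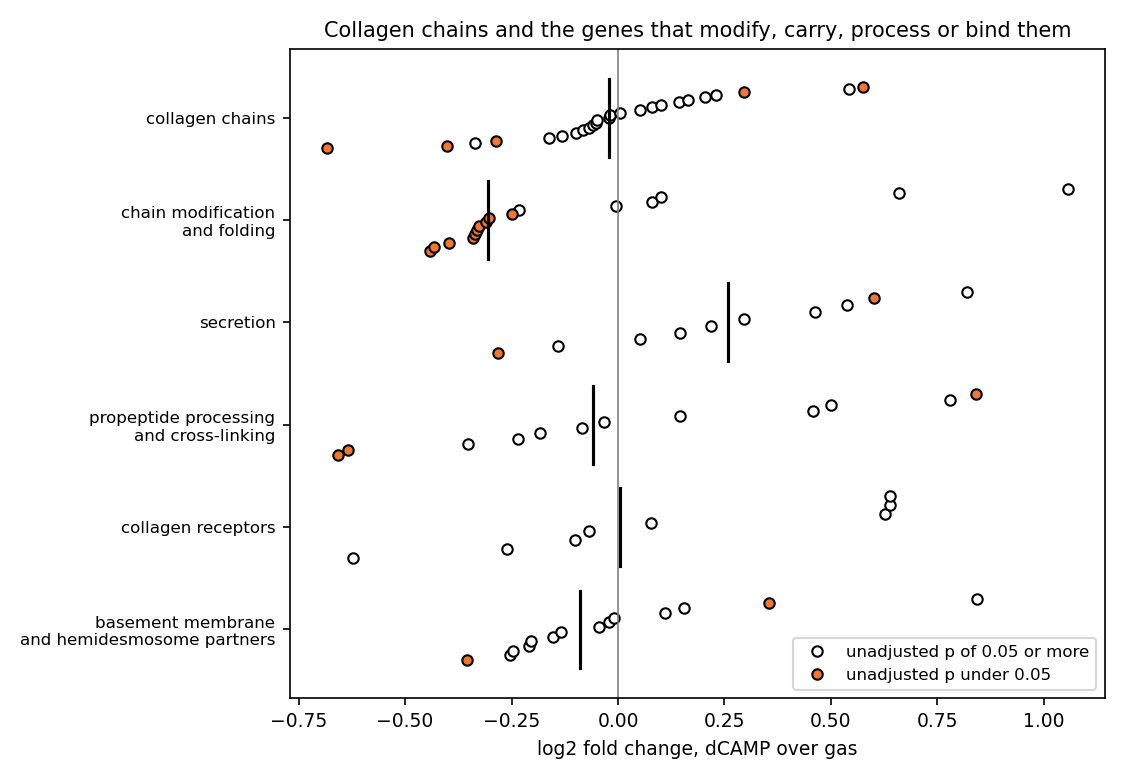
Log2 fold change (dCAMP over gas) of the tested collagens and of the tested genes of the 5 partner lists; orange points have an unadjusted p under 0.05 and vertical bars are medians. The medians are -0.02 for collagens, -0.31 for chain modification and folding, 0.26 for secretion, -0.06 for processing and cross-linking, 0.00 for receptors and -0.09 for basement membrane and hemidesmosome partners.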

How the data were processed

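RNA-Seq of 3 gas and 3 dCAMP libraries was analysed from the tables the authors deposited. Per the paper's methods and the submitters' processing notes, reads were cleaned of adapters, contaminant DNA and PCR duplicates (FastQC 0.11.7, Trimmomatic 0.38), mapped to CanFam3.1 (HISAT2 2.1.0) and summarized over known transcripts (StringTie 2.1.3b). The annotation release and the counting of reads on overlapping genes are not given in the sources used here, and 10 of the 25 tested collagen loci overlap another gene. The authors deposited raw counts (whole numbers, not normalized) for genes and for transcripts, FPKM values scaled for length and for the reads mapped, and TPM values scaled to a fixed sum of transcripts. Depth was 43084921 to 54082634 counts per library.

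Counts were fitted with edgeR 4.0.16 in R 4.3.3 (TMM factors, filterByExpr, glmQLFit and glmQLFTest, prior count of 2), over the 14708 genes kept, with Benjamini-Hochberg adjustment over all of them. The standard error is the size of the log2 fold change divided by the square root of F. Tables were made with Python 3.11.15 and pandas 2.3.3. Alternatives were DESeq2 1.42.0, RLE factors, no filter, the replicate number as a block, limma 3.58.1 (voom with sample weights, and log2 of FPKM plus 1 or 0.1), a lowess correction for transcript length (span 0.3), the same together with the block, and fits with each library left out in turn. The fits were also run on simulated counts with the same spread in both groups and with larger changes than the collagens showed. That setting differs from these libraries, so it does not show how the fits behave here.

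Collagens with a mean of at least 1 FPKM, those with an unadjusted p under 0.05, and COL1A1, COL1A2, COL3A1, COL4A1 and COL4A2 are given per library. From each partner list, the 2 genes with the highest FPKM and the 2 with the smallest p are named. From each marker list, the 2 highest are named, except that 1 marker is not reported here. Genes named beyond this rule, among them SERPINH1, PLOD2 and COL11A2, were chosen after their values were seen, as were the 5 ratios and the alternatives for partner genes and for collagens outside the rule. The members and lists were chosen with earlier results of these data known. The reference gene table held 43 of the 44 collagen gene IDs. The unmatched columns numbered 0.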

Additional observations from a re-analysis of the deposited data

How the results depend on the processing

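The main limits are the spread of the gas libraries, the low counts of collagen I, and length. Collagens with an adjusted p under 0.05 numbered 0 in edgeR, 9 with voom weights and 0 to 3 when leaving out 1 library. Collagens with an unadjusted p under 0.05 numbered 5 in edgeR, 11 with voom weights and 3 with the length correction and replicate block together. When leaving out 1 library they numbered 1 to 6 (1 without gas library 2, dCAMP library 2 or dCAMP library 3, and 3 without dCAMP library 1). Beside the 11, the voom fit called 60.8% of all genes even at an adjusted p under 0.05. Shares of all genes at the unadjusted threshold were counted only for the main fit. All genes with an adjusted p under 0.05 numbered 0 in edgeR, 295 with DESeq2 on all genes with a count, 163 with DESeq2 on genes with a count in every library, 8944 with voom weights, 3 on log2 of FPKM plus 0.1 and 0 to 4953 when leaving out 1 library, the highest with gas library 3 left out, and 1 with gas library 1 left out. The median collagen log2 fold change moved from -0.02 to -0.21 with the length correction, alone or with the block, and ran from -0.12 to 0.02 when leaving out 1 library. The causes were not tested. Collagens at 1 FPKM or more in gas numbered 15, and 17 by TPM.

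Among the tested collagens and named partner genes, directions turned as follows, in all cases from a log2 fold change of at most 0.23 in size. COL14A1 became -0.0092 under both DESeq2 fits, -0.0036 with RLE factors, -0.0038 with no filter, -0.025 with voom weights and -0.22 under both length corrections. With voom weights COL7A1 became 0.044, COL5A2 0.019, COL9A2 0.0058 and COL8A2 -0.11. With the length correction, without and with the block, COL4A6 became -0.21 and -0.19, COL3A1 -0.056 and -0.050, COL12A1 -0.13 and -0.13, COL22A1 -0.16 and -0.11, COL8A2 -0.068 and -0.073, and CD44 -0.13 and -0.12, and without the block COL5A3 became -0.014 and COL2A1 -0.0057. Leaving out 1 library, COL14A1 ran from -0.095 to 0.031, COL4A6 from -0.030 to 0.11, COL7A1 from -0.12 to 0.039, COL22A1 from -0.10 to 0.26, COL17A1 from -0.11 to 0.015, COL9A2 from -0.27 to 0.14, COL6A1 from -0.19 to 0.038, COL26A1 from -0.30 to 0.16, COL8A2 from -0.10 to 0.14 and TFG from -0.018 to 0.063.

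Same-numbered gas and dCAMP libraries had deviations correlated at 0.13, 0.02 and 0.05, so the numbers were not taken as pairs. With the replicate number as a block in edgeR, 0 collagens had an adjusted and 4 an unadjusted p under 0.05, 2 higher and 2 lower. COL4A2 was the one lost (log2 fold change -0.28, unadjusted p = 0.0585). The share of all genes at the unadjusted threshold was not counted for that fit.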

Other observations

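Outside the symbol rule, 45 further genes of the table are described as a collagen chain, all without a standard collagen symbol. A count was found for 18 of them, 8 passed the filter on low counts, and the highest, LOC111095176, had a mean of 2.03 FPKM.

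Of the 4 endothelial markers tested, KDR, TIE1 and CDH5 were higher after dCAMP at an unadjusted p under 0.05, where 6.81% of all genes were. All 3 were at low levels. KDR, a receptor for vascular endothelial growth factor, had 3.41, 4.44 and 3.81 CPM in gas and 5.98, 4.69 and 5.33 CPM in dCAMP libraries, a log2 fold change of 0.45 ± 0.16 (edgeR adjusted p = 0.224). TIE1 and CDH5 had log2 fold changes of 0.63 ± 0.21 and 0.69 ± 0.27 at 0.171 and 0.140 FPKM. In these 3 genes all dCAMP libraries were above all gas libraries, as in 19.0% of all genes. PECAM1 and EMCN were listed at 0, and 0 of the 4 tested markers had an adjusted p under 0.05 in edgeR with or without gas library 3. At the unadjusted threshold the number of higher markers was 1 without gas library 3, 0 without gas library 1, 0 with the length correction and 3 with voom weights. For these fits the share of all genes at that threshold was not counted. Among melanocyte markers, MLANA had 4, 0 and 0 counts in gas and 13, 16 and 11 counts in dCAMP libraries, with a fitted log2 fold change of 2.30 ± 0.64 (edgeR adjusted p = 0.221) that depends on the prior count at such counts, and overlapping groups in FPKM. The part of these markers in the collagen values was not tested.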
